A study of Homo sapiens with 10 samples.

Results

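The genes encoding matrix metalloproteinases (MMPs), ADAM proteases, ADAMTS proteases, ADAMTS-like proteins and the tissue inhibitors of metalloproteinases (TIMPs) were examined in RNA-sequencing libraries of U2OS cells upon knockdown of DDX41. Members were all protein-coding genes whose symbol marks them as belonging to these families, and 72 were found among the 63299 genes listed, namely 24 with an MMP symbol, 20 ADAM, 19 ADAMTS, 5 ADAMTSL and 4 TIMP genes. MMP24OS, a gene on the strand opposite to MMP24, matches by its symbol but does not encode an MMP. U2OS is a human osteosarcoma cell line. In the control group, siCtrl, cells received a control siRNA, and in the other group, siDDX41, a pool of siRNAs against the RNA helicase DDX41. RNA was taken after 48 h, and each group had 5 libraries of polyadenylated RNA. The sample labels do not say that the libraries of a group are separate cultures, so p-values measure only the spread between these samples.

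Metzincin proteases hold a zinc ion in their active site. MMPs are made as inactive proenzymes and, once activated, cleave collagens and other matrix proteins, either as secreted enzymes or while anchored in the membrane. ADAM proteases sit in the plasma membrane, where many of them release the outer part of other membrane proteins, a process called shedding. ADAMTS proteases are secreted and process procollagens or cleave proteoglycans, whereas ADAMTS-like proteins share their accessory domains but lack the protease. TIMPs bind the active sites of these enzymes, and TIMP3 also inhibits several ADAM and ADAMTS proteases. In osteosarcoma, as in other sarcomas, MMP2, MMP9 and MMP14 have been studied for their part in invasion.

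The siCtrl libraries held 24598860, 24353720, 23597352, 23393764 and 23863834 counted reads for replicates 1 to 5. The siDDX41 libraries held 21807041, 22995923, 24896398, 23714261 and 23723969 counted reads. Levels are given as CPM, the read counts relative to the size of the library scaled by TMM factors, and values of single libraries follow the replicate numbers of the labels. DDX41 itself (ENSG00000183258.11, chr5:177511577-177516961, GRCh38, minus strand) measured 49.1, 49.4, 47.3, 47.2 and 50.5 CPM in siCtrl and 11.5, 13.7, 12.4, 11.2 and 12.3 CPM in siDDX41. All siDDX41 libraries lay below all siCtrl libraries. The log2 fold change was -1.99 (SE 0.0491), with an adjusted p of 4.47e-24 by the quasi-likelihood (QL) test of edgeR, Benjamini-Hochberg adjusted over all genes tested, and the exact two-sided permutation test gave p = 0.00794, the smallest it can give for 5 against 5 libraries.

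Of the 16143 genes that passed the expression filter, 62.4% were called at an adjusted p under 0.01 by the edgeR QL test, Benjamini-Hochberg adjusted, 30.3% as higher and 32.1% as lower in siDDX41. Of the 72 members, 49 passed the filter, and of these 18 were upregulated, 18 were downregulated and 13 were not called. Called members thus made up 73.5% of those tested. Over the 49 members tested, the median log2 fold change was -0.02, beside -0.001 over all genes tested. The median size of the log2 fold change was 0.49, beside 0.28. The groups did not overlap in 32 of the 49 members, beside 55.9% of all genes tested. The filter asks for 0.422 CPM in 5 libraries, and this level was reached by MMP7 and ADAMTS14 in 5 siCtrl and 0 siDDX41 libraries, by ADAM28 in 1 and 5, and by ADAM21 in 2 and 5.

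**Figure D1:**
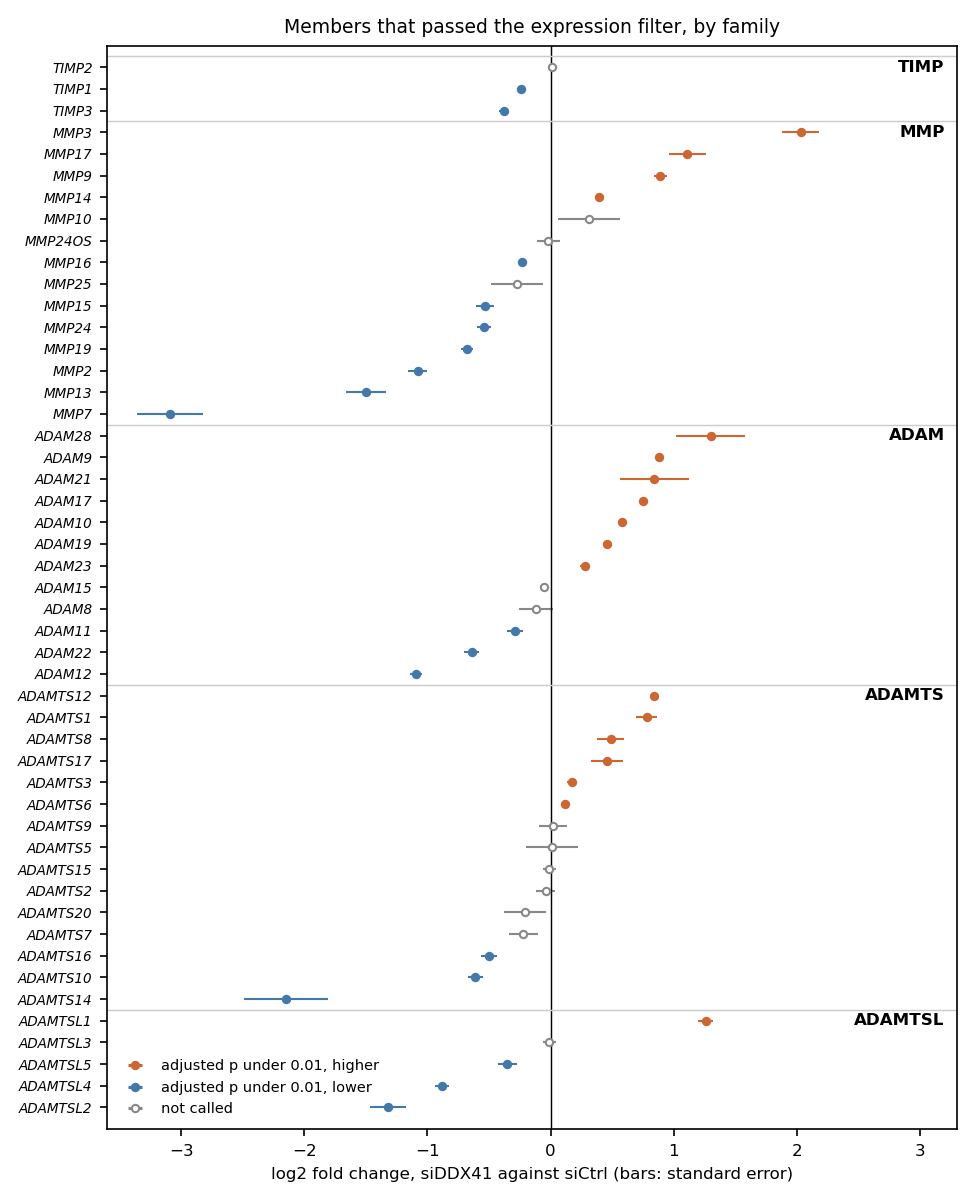
The log2 fold change (horizontal axis) of siDDX41 against siCtrl is plotted for the 49 members that passed the filter, grouped by family, with the standard error as a bar. The ADAM family had 7 genes called higher and 3 called lower of 12 tested. The MMP family had 4 and 7 of 14, which include the uncalled MMP24OS, and the TIMP family 0 and 2 of 3. The ADAMTS family had 6 and 3 of 15, and the ADAMTSL family 1 and 3 of 5. The shares called were 83.3% for ADAM, 78.6% for MMP, 66.7% for TIMP, 60% for ADAMTS and 80% for ADAMTSL. Without MMP24OS, which does not encode an MMP, the MMP share was 84.6%. Of all genes tested, 62.4% were called.

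Among the MMPs, the gelatinases MMP2 and MMP9, which degrade denatured collagen and basement membrane collagen, moved in opposite directions. MMP2 (ENSG00000087245.12, chr16:55389700-55506691, plus strand) measured 596, 560, 613, 565 and 607 CPM in siCtrl and 256, 327, 246, 263 and 299 CPM in siDDX41. It was the most abundant MMP transcript per exon length in siCtrl, and all knockdown libraries lay below all controls, with replicate 2 the highest of them. MMP2 fell by 1.08 on the log2 scale (SE 0.0786), with an adjusted p of 1.07e-06 by the edgeR QL test, Benjamini-Hochberg adjusted. MMP9 (ENSG00000100985.7, chr20:46008908-46016561, plus strand) measured 21.5, 22.2, 22, 19.6 and 23.6 CPM in siCtrl and 44.6, 37.7, 42.6, 39.8 and 37.5 CPM in siDDX41. Every knockdown library was above every control. The log2 fold change was 0.89 (SE 0.0526, adjusted p 1.08e-14 by the same edgeR test, Benjamini-Hochberg adjusted). MMP9 shares 18.4% of its exon length with SLC12A5-AS1 on the opposite strand, a gene with 2.3% of its mean count.

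The stromelysin MMP3 had the largest increase among the called members with at least 1 CPM. It cleaves proteoglycans and fibronectin and can activate other MMP proenzymes. MMP3 (ENSG00000149968.11) measured 11.2, 10.9, 8.45, 8.34 and 8.96 CPM in siCtrl and 45.6, 31.7, 46.4, 38 and 34.1 CPM in siDDX41. The knockdown libraries were all higher than the controls and their values spread more widely in CPM. The log2 fold change was 2.03 (SE 0.15), and the edgeR QL test gave a Benjamini-Hochberg adjusted p of 1e-06.

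MMP3 belongs to a cluster of 9 MMP genes on chromosome 11 (chr11:102520508-102955732, GRCh38), all on the minus strand. In order along the chromosome these are MMP7, MMP20, MMP27, MMP8, MMP10, MMP1, MMP3, MMP12 and MMP13. Of the 4 that passed the filter, MMP3 was upregulated, MMP7 and MMP13 were downregulated and MMP10 was not called, where 62.4% of all genes tested were called. The matrilysin MMP7, a short MMP that lacks the hemopexin domain of most others, measured 1.63, 2, 1.85, 1.07 and 2.37 CPM in siCtrl and 0.23, 0.304, 0.202, 0.213 and 0.0851 CPM in siDDX41. MMP7 reached the filter's level in 5 siCtrl and 0 siDDX41 libraries, so it was tested only through its level in siCtrl. That all of its knockdown libraries were below the lowest control follows from this and is not separate support for the change. The log2 fold change was -3.09 (SE 0.27, adjusted p 3.04e-11 by the edgeR QL test, Benjamini-Hochberg adjusted). MMP7 averaged just under the 1 CPM above which members were to be named, and is given as a gene of the cluster.

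The collagenase MMP13, which cleaves fibrillar collagen and is known from cartilage and bone, measured 2.08, 2.08, 2.65, 2.48 and 2.79 CPM in siCtrl and 0.92, 0.782, 0.726, 0.98 and 0.851 CPM in siDDX41. Its groups did not overlap either. MMP13 was 2.83-fold lower (95% interval of the log2 fold change -1.81 to -1.20, adjusted p 8.63e-10 by the edgeR QL test, Benjamini-Hochberg adjusted). MMP10, a second stromelysin, had a mean of 0.835 ± 0.352 CPM (SD, n = 5) in siCtrl and 1.04 ± 0.305 CPM in siDDX41, and its groups overlapped. The 95% interval of its log2 fold change ran from -0.19 to 0.80. The other 5 genes of the cluster did not pass the filter. The collagenase MMP1 had 24 counts over the siCtrl and 43 over the siDDX41 libraries, and the macrophage elastase MMP12 had 30 and 53. MMP8 and MMP20 had 3 and 2 counts in siCtrl and 0 in siDDX41, and MMP27 had 0 in all libraries. MMP1 and MMP3 share exon bases with the pseudogene WTAPP1 on the opposite strand, 8.1% of the exon length of MMP1 and 1.7% of that of MMP3, and the strand setting of the read counting is not given in the sources used here.

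**Figure D2:**
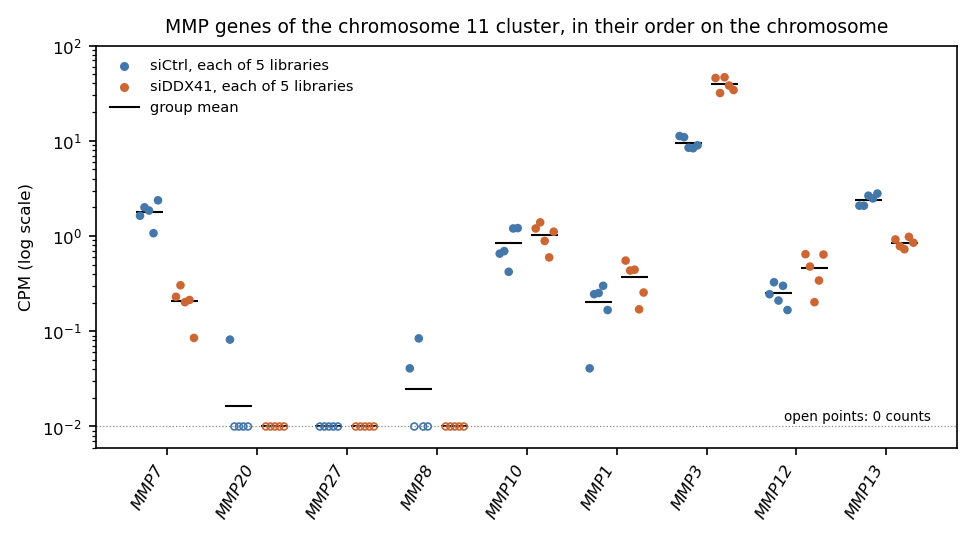
The level of each MMP gene of the chromosome 11 cluster is plotted in CPM on a log axis, in the order of the genes on the chromosome, with 1 point per library and a line at the group mean. Libraries with 0 counts are open points on the dotted line, and MMP3 is higher while MMP7 and MMP13 are lower in all siDDX41 libraries. MMP7 reached the filter's level in 5 siCtrl and 0 siDDX41 libraries, from which the separation of its groups follows.

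The 6 membrane-type MMPs all passed the filter, and 2 were upregulated, 3 were downregulated and MMP25 was not called (83.3% called, beside 62.4% of all genes tested). MMP14 (MT1-MMP), a collagenase of the cell surface that activates the MMP2 proenzyme in a complex with TIMP2, measured 217, 211, 210, 206 and 221 CPM in siCtrl and 271, 292, 271, 280 and 286 CPM in siDDX41. The groups did not overlap. Its log2 fold change was 0.39 (SE 0.0285, adjusted p 3.58e-13 by the edgeR QL test, Benjamini-Hochberg adjusted). Per exon length, MMP14 stood at 46.1 CPM per kb in siCtrl, below MMP2 at 125, and at 60.6 CPM per kb in siDDX41, beside MMP2 at 59.1. MMP17, which is anchored by a lipid, went from 1.45 ± 0.311 to 3.12 ± 0.548 CPM (SD, n = 5 each; log2 fold change 1.11). The transmembrane enzymes MMP15, MMP16 and MMP24 were lower, with means of 35 and 24.2 CPM for MMP15, 85.6 and 73 CPM for MMP16, and 76.1 and 52.4 CPM for MMP24. MMP24 and MMP24OS share 806 exon bases on opposite strands, so that their reads may not be separated there, and MMP24OS itself had 4.36 and 4.32 CPM. MMP25 had 0.848 and 0.7 CPM, and MMP25-AS1 on the opposite strand covers 30.6% of its exon length and had 892.4% of its mean count.

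MMP19, which cleaves components of basement membranes, measured 31.4, 29.1, 32.8, 30.1 and 29 CPM in siCtrl and 19.1, 18.5, 18.4, 19.5 and 19.6 CPM in siDDX41. All knockdown libraries were lower than all controls. It fell by 0.68 on the log2 scale (SE 0.047, adjusted p 1.35e-13 by the edgeR QL test, Benjamini-Hochberg adjusted). TMEM198B, on the opposite strand, covers 17.6% of the exon length of MMP19 and had 40.4% of its mean count.

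Of the 4 inhibitor genes, TIMP1 and TIMP3 were downregulated, TIMP2 was not called and TIMP4 did not pass the filter. The share called was 66.7%, near the 62.4% of all genes tested. TIMP1 (ENSG00000102265.11, chrX:47582408-47586789, plus strand) measured 541, 531, 533, 522 and 566 CPM in siCtrl and 465, 458, 436, 450 and 470 CPM in siDDX41. The groups did not overlap. TIMP1 fell by 0.24 on the log2 scale (SE 0.0274, adjusted p 5.6e-09 by the edgeR QL test, Benjamini-Hochberg adjusted). TIMP3 (ENSG00000100234.11, chr22:32801705-32863041, plus strand), the inhibitor that stays bound to the matrix, measured 131, 126, 130, 139 and 131 CPM in siCtrl and 95.1, 97.8, 97.7, 112 and 103 CPM in siDDX41. Its knockdown libraries were all lower as well. TIMP3 fell by 0.38 on the log2 scale (SE 0.0371, adjusted p 7.64e-10 by the same edgeR test, Benjamini-Hochberg adjusted).

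TIMP2 (ENSG00000035862.12, chr17:78852977-78925387, minus strand) measured 546, 521, 541, 540 and 544 CPM in siCtrl and 513, 548, 540, 550 and 560 CPM in siDDX41. The groups overlapped, and the 95% interval of the log2 fold change ran from -0.04 to 0.06. TIMP4 had 3 counts over the siCtrl and 4 over the siDDX41 libraries. Per exon length TIMP1 was the most abundant inhibitor, with 373 CPM per kb in siCtrl, followed by TIMP2 with 86.7 and TIMP3 with 28.6.

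Of the called members with at least 1 CPM and a promoter in the table, ADAM12 had the largest change with a window free of exons. Its promoter is shown with those of TIMP1 and TIMP3, the TIMP genes that passed the filter and had a promoter in the table. Each is the run of 250 bases before the RefSeq transcription start (GRCh38.p14), 5′ to 3′ on the strand of the gene, and capitals mark GC boxes, GGGCGG or its reverse complement CCGCCC. The windows are chrX:47582186-47582435 for TIMP1, chr22:32801455-32801704 for TIMP3 and chr10:126388478-126388727 for ADAM12. The last 28 bases of the TIMP1 window lie in an exon of a longer GENCODE transcript of TIMP1.
TIMP1: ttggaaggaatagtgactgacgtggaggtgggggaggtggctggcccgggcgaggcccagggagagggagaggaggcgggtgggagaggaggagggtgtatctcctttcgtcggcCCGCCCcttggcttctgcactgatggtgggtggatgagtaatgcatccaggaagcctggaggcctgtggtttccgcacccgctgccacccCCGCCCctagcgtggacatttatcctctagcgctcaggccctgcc
TIMP3: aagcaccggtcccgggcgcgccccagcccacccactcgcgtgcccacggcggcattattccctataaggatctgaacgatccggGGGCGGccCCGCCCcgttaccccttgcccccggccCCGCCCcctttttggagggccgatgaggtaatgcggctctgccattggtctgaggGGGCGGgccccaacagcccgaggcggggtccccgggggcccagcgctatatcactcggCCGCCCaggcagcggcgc
ADAM12: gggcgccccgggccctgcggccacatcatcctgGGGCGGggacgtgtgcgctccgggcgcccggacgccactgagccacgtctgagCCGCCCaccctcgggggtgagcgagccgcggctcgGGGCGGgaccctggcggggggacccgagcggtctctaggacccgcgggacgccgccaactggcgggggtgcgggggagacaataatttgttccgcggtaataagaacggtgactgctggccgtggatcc
The TIMP1 window held 2 GC boxes, that of TIMP3 held 5 and that of ADAM12 held 3. Of the 72 members, 45 matched a promoter in the RefSeq table, and those of MMP2, MMP3, MMP9, MMP13 and TIMP2 are not among them. A GC box was found in 31 of the 45, beside 42.6% of all 35116 promoters. The AP-1 letters TGANTCA, which read the same on both strands, were found in 4 of the 45 (MMP7, MMP10, MMP20 and ADAMTS12), beside 6.57% of all promoters. The TATA letters TATAAA on either strand were found in 8, beside 10.7%. The members are protein-coding genes with a single promoter each, whereas the 35116 promoters were not limited in either way. These shares are thus of unlike sets and do not show that a motif is more frequent in the members. A GC box was found in 7 of 11 upregulated, 11 of 12 downregulated and 7 of 8 uncalled tested members with a promoter, and the matches are given as a description of the letters.

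The balance of proteases and inhibitors was described by summing levels per exon length in each library, with MMP24OS left out and without a test. The summed MMP level was 231, 223, 230, 219 and 234 CPM per kb in siCtrl and 185, 197, 183, 185 and 191 in siDDX41. All knockdown libraries were lower. The summed TIMP level was 490, 479, 484, 478 and 508 CPM per kb in siCtrl and 425, 427, 410, 424 and 438 in siDDX41, again lower in all knockdown libraries. MMP and TIMP sums were thus both lower, and the log2 ratio of MMP to TIMP was -1.08, -1.10, -1.07, -1.12 and -1.12 in siCtrl and -1.20, -1.11, -1.16, -1.20 and -1.20 in siDDX41. Replicate 2 of siDDX41 lay within the range of the controls, and the mean difference of siDDX41 minus siCtrl was -0.07. The direction of this difference depended on MMP2, without which it was 0.53, and it was -0.26 when levels were not divided by length.

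The make-up of the MMP sum differed more than its size. MMP2 contributed 54.9% ± 1.18 of it in siCtrl and 31.4% ± 2.81 in siDDX41 (SD, n = 5 each). MMP3 and MMP9 together contributed 6.37% ± 0.413 and 20.5% ± 3.1. Without MMP2, the summed MMP level was 103 ± 2.84 CPM per kb in siCtrl and 129 ± 1.67 in siDDX41, and the groups did not overlap. The ADAM sum, at 94.6 ± 1.15 and 132 ± 0.889 CPM per kb, and the ADAMTS sum, at 45.1 ± 1.29 and 61.3 ± 1.53, were higher in all knockdown libraries. Without ADAMTS12, the ADAMTS sum was 25.1 ± 0.542 and 25.4 ± 0.345 CPM per kb, and the groups overlapped. Without ADAM9, the ADAM sum was 74.3 ± 0.815 and 94.4 ± 1.36 CPM per kb, and the groups did not overlap. Both sums were formed after the values were seen. Transcript sums say nothing of how much active enzyme was present.

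**Figure D3:**
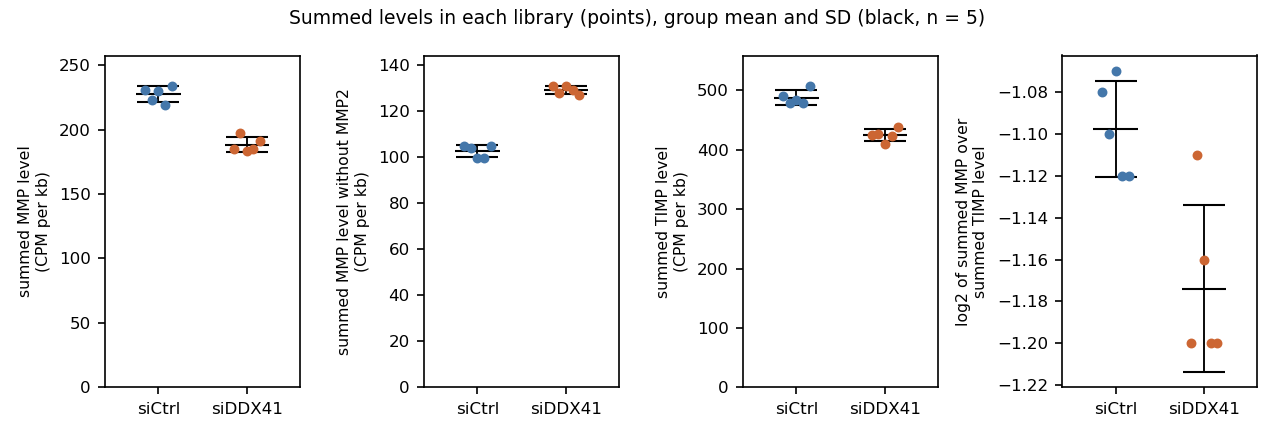
Summed levels of MMP genes, of MMP genes without MMP2 and of TIMP genes (CPM per kb) and the log2 ratio of the MMP to the TIMP sum are plotted for each library, with the group mean and SD in black. The MMP and TIMP sums are lower in siDDX41, the MMP sum without MMP2 is higher, and the ratio of replicate 2 of siDDX41, at -1.11, lies among the controls.

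Among the ADAM genes with an active protease, 9 of 12 passed the filter, 6 were upregulated and ADAM12 alone was downregulated, so that 77.8% were called, beside 62.4% of all genes tested. The sheddases ADAM10 and ADAM17, which release growth factors, cytokines and Notch receptors from the cell surface, and ADAM9, which sheds some of the same proteins, were all higher. ADAM9 (chr8:38996754-39105445) measured 376, 357, 359, 363 and 345 CPM in siCtrl and 660, 634, 671, 679 and 663 CPM in siDDX41. ADAM10 (chr15:58588809-58749791) measured 290, 272, 290, 282 and 282 CPM in siCtrl and 430, 416, 426, 429 and 415 CPM in siDDX41. ADAM17 (chr2:9488486-9556732) measured 97.1, 93.3, 99.9, 99.9 and 96.7 CPM in siCtrl and 166, 162, 165, 165 and 160 CPM in siDDX41. For these 3 genes every knockdown library lay above every control. The log2 fold changes were 0.88 (SE 0.0272) for ADAM9, 0.58 (SE 0.0259) for ADAM10 and 0.75 (SE 0.0286) for ADAM17. The adjusted p was 8.01e-22, 4.9e-18 and 1.12e-19 in the same order, by the edgeR QL test, Benjamini-Hochberg adjusted. ADAM17 shares 10.3% of its exon length with IAH1 on the opposite strand, which had 18.3% of its mean count.

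ADAM19, which can shed neuregulins, measured 190, 182, 189, 190 and 189 CPM in siCtrl and 256, 277, 247, 240 and 276 CPM in siDDX41. All knockdown libraries were higher (log2 fold change 0.46, SE 0.0342). ADAM12, which cleaves binding proteins of insulin-like growth factors, went the other way. It measured 41, 41.1, 38.6, 42.4 and 37.8 CPM in siCtrl and 17.8, 18.1, 19.9, 20.2 and 18.1 CPM in siDDX41. The groups did not overlap, and ADAM12 fell by 1.09 on the log2 scale (SE 0.0475, adjusted p 2.57e-18 by the edgeR QL test, Benjamini-Hochberg adjusted). ADAM15 had 82.6 and 80 CPM and ADAM8 had 2.15 and 1.97 CPM, and neither was called. ADAM28 and ADAM21 were called higher at levels under 1 CPM. They reached the filter's level in 1 and 2 siCtrl libraries and in 5 siDDX41 libraries each. ADAM21 and ADAM20 are close relatives without introns in their coding sequence, so that reads may be shared between them, and its call was lost under several settings. Its log2 fold change was 0.84 in the main fit. It was 0.86 in DESeq2 (adjusted p 0.0369), 0.85 in edgeR without the expression filter (adjusted p 0.0137) and 0.85 with a replicate block (adjusted p 0.0107). The fold change lay between 0.72 and 0.82 and the adjusted p between 0.0168 and 0.028 in edgeR without replicate 2, 3 or 4 of siCtrl, or without replicate 2, 4 or 5 of siDDX41.

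Of the 8 ADAM genes without an active protease, 3 passed the filter. These are ADAM11, ADAM22 and ADAM23, receptors for LGI proteins in the nervous system. ADAM22 measured 15.4, 15.5, 16.3, 17.6 and 15.7 CPM in siCtrl and 10.3, 11.3, 9.31, 10.6 and 10.3 CPM in siDDX41. All knockdown libraries were lower, and ADAM22 fell by 0.64 on the log2 scale (SE 0.0613, adjusted p 2.01e-10 by the edgeR QL test, Benjamini-Hochberg adjusted). ADAM11 also fell, from 9.99 to 8.15 CPM, whereas ADAM23 rose from 35.7 to 43.4 CPM.

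Of the 19 ADAMTS genes, 15 passed the filter, 6 were upregulated, 3 were downregulated and 6 were not called, so that 60% were called, beside 62.4% of all genes tested. ADAMTS12, which cleaves cartilage oligomeric matrix protein, was the most abundant of them per exon length, with 20.1 CPM per kb in siCtrl. It measured 192, 188, 199, 202 and 182 CPM in siCtrl and 330, 340, 340, 362 and 352 CPM in siDDX41. The groups did not overlap. Its log2 fold change was 0.84 (SE 0.0305, adjusted p 3.75e-20 by the edgeR QL test, Benjamini-Hochberg adjusted). Among the proteoglycanases, which cleave aggrecan and versican, ADAMTS1 rose from 8.4 ± 0.866 to 14.4 ± 1.88 CPM and ADAMTS8 from 3.09 ± 0.413 to 4.34 ± 0.47 CPM (SD, n = 5 each). ADAMTS5, ADAMTS9, ADAMTS15 and ADAMTS20 of the same group were not called, and their means in siCtrl lay between 0.973 and 18.9 CPM. Among the procollagen N-propeptidases, which trim procollagen, ADAMTS3 rose from 44.5 to 49.9 CPM, ADAMTS14 fell from 0.858 to 0.193 CPM, and ADAMTS2 had 8.28 and 8.04 CPM and was not called. ADAMTS14 reached the filter's level in 5 siCtrl and 0 siDDX41 libraries. ADAMTS10, which binds fibrillin, fell from 18.6 to 12.2 CPM and ADAMTS16 from 13.5 to 9.54 CPM. ADAMTS17 and ADAMTS6 were called higher with overlapping groups, and ADAMTS7 was not called at 3.3 and 2.83 CPM. The call of ADAMTS17 was lost without replicate 3 of siCtrl (adjusted p 0.0101 by edgeR). Its log2 fold change was then 0.39, beside 0.46 in the main fit. The call of ADAMTS6 was lost without replicate 1, 2 or 5 of siCtrl, or without replicate 1, 2, 3 or 4 of siDDX41. In these fits the adjusted p lay between 0.0109 and 0.0351 by edgeR. The log2 fold change of ADAMTS6 lay between 0.1 and 0.12 in them, beside 0.12 in the main fit.

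All 5 ADAMTS-like genes passed the filter. ADAMTSL1 measured 10.7, 9.02, 8.75, 9.11 and 9.71 CPM in siCtrl and 24.3, 23.2, 23.1, 21.8 and 21.1 CPM in siDDX41. Every knockdown library was higher, and the log2 fold change was 1.26 (SE 0.0601, adjusted p 2.13e-17 by the edgeR QL test, Benjamini-Hochberg adjusted). ADAMTSL4, a protein of fibrillin microfibrils, measured 22.1, 23.6, 19.8, 20.7 and 23.9 CPM in siCtrl and 11.6, 11.9, 12.2, 12.2 and 12 CPM in siDDX41. It fell by 0.88 on the log2 scale (SE 0.0577, adjusted p 3.89e-14 by the same edgeR test, Benjamini-Hochberg adjusted), with no overlap between groups. It shares 43 exon bases with the opposite-strand gene MCL1, which has far more reads. ADAMTSL2, which also binds fibrillin, fell from 2.6 to 1.04 CPM and ADAMTSL5 from 9.84 to 7.69 CPM. ADAMTSL3 had 24.6 and 24.3 CPM and was not called.

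**Figure D4:**
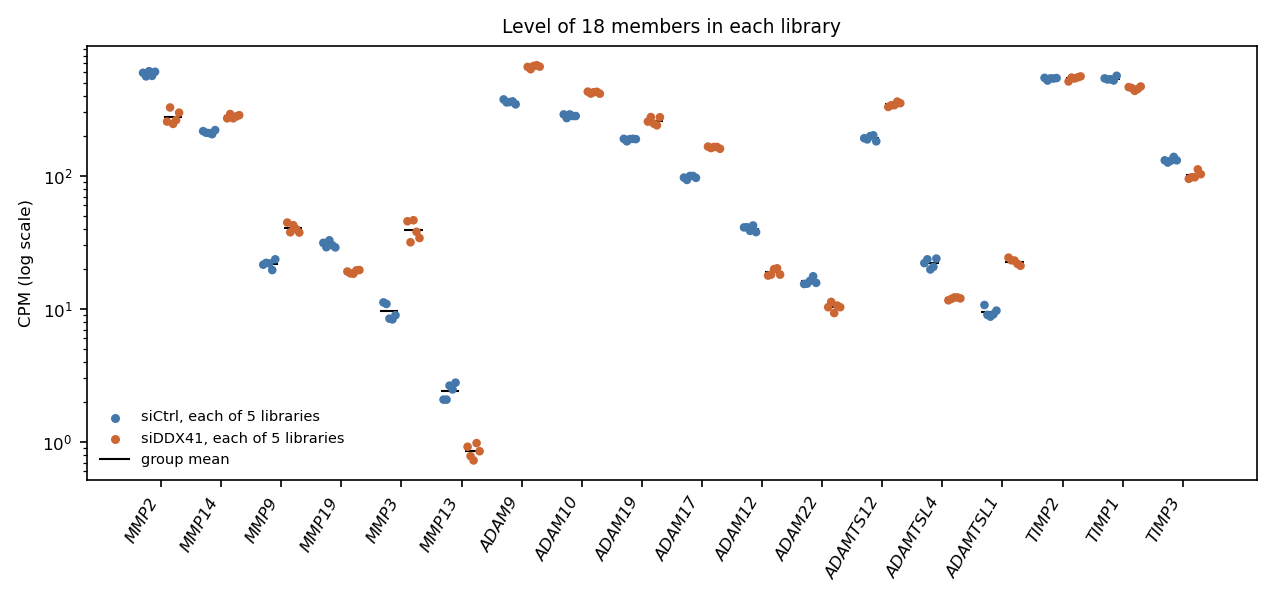
The level of 18 members in each library is plotted in CPM on a log axis, with 1 point per library and a line at the group mean. These are the 14 members with the smallest adjusted p among those with at least 1 CPM, together with MMP2, MMP3, TIMP1 and TIMP2, and TIMP2 is the one whose groups overlap.

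Of 7 genes for inhibitors outside the TIMP family, 5 passed the filter, and SPOCK1, a proteoglycan, was the 1 called (20%, beside 62.4% of all genes tested), falling from 39.3 to 31.4 CPM. RECK, a membrane-anchored inhibitor of MMPs, had 34.9 ± 1.48 and 35.6 ± 1.59 CPM, and the protease trap A2M had 26.9 ± 5.55 and 30.7 ± 6.86 CPM (SD, n = 5 each). Neither was called.

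Among 17 genes that activate these proteases or bring them to their place, 16 passed the filter, 6 were upregulated and 7 were downregulated (81.2% called, beside 62.4% of all genes tested). FURIN, a convertase that removes the prodomain of MMP14 and of many ADAM proteases, rose from 207 to 307 CPM. The convertase PCSK5 fell from 59.4 to 37.6 CPM. SH3PXD2A (TKS5), a scaffold of invadopodia, rose from 61.5 to 123 CPM, and its relative SH3PXD2B (TKS4) fell from 109 to 77.2 CPM. Of 10 further metzincins and related genes, 7 passed the filter, with 2 higher and 2 lower (57.1% called, beside the same 62.4%). PAPPA and PAPPA2, which cleave binding proteins of insulin-like growth factors, rose from 8.62 to 23.8 and from 3.47 to 10.2 CPM. BMP1, the procollagen C-proteinase, fell from 115 to 96.9 CPM.

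Of 12 transcription factor genes known to act on MMP genes, all passed the filter, 5 were upregulated and 2 were downregulated. The share called, 58.3%, was near the 62.4% of all genes tested. The ETS factors ETV5 and ETV4 rose from 62.8 to 111 and from 78.6 to 117 CPM, and the AP-1 subunit JUN rose from 109 to 147 CPM. The AP-1 subunit FOSL2 fell from 384 to 344 CPM and the osteoblast factor RUNX2 from 32.4 to 24.6 CPM. The median log2 fold change was 0.15 over these factors, -0.13 over the activating and guiding genes and 0.03 over the inhibitors outside the TIMP family, beside -0.001 over all genes tested.

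**Figure D5:**
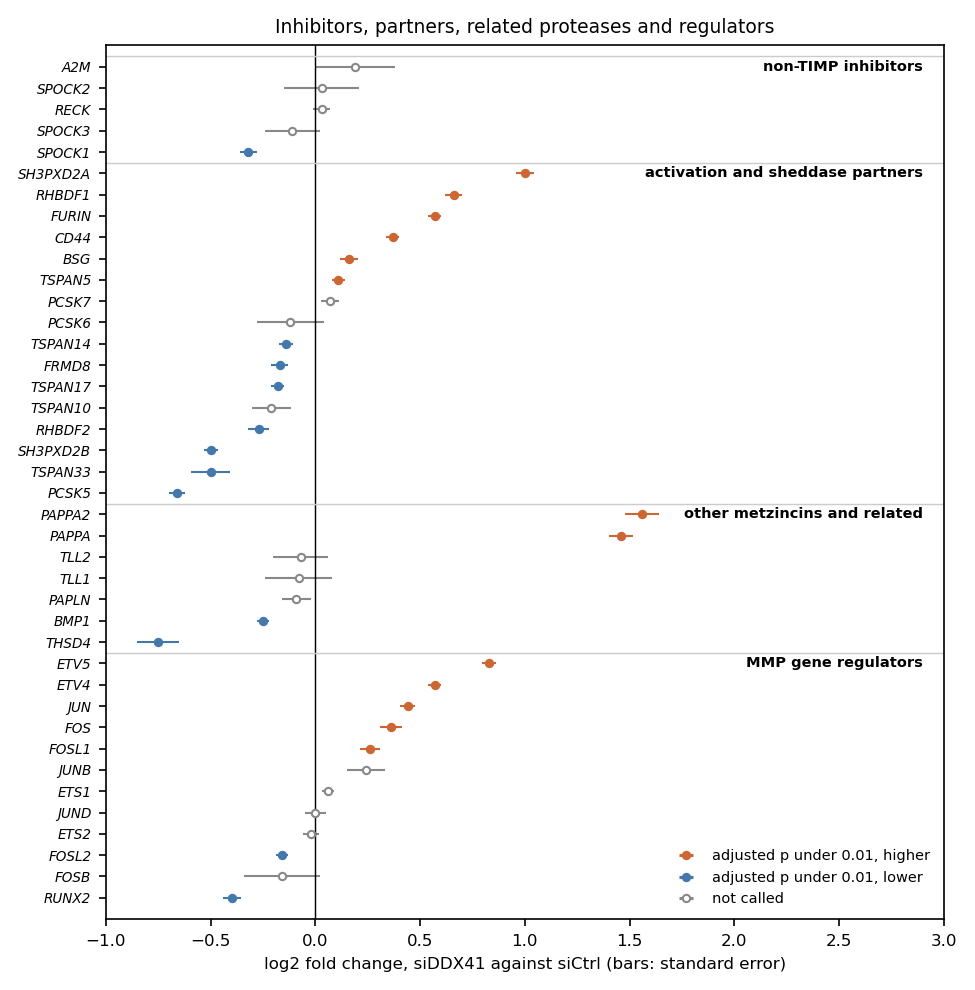
The log2 fold change (horizontal axis) of siDDX41 against siCtrl is plotted, with the standard error as a bar, for inhibitors outside the TIMP family, activating and guiding partners, related proteases and transcription factors of MMP genes. PAPPA2 and PAPPA stand farthest to the right, and SPOCK1 is the called inhibitor.

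Substrates changed in both directions. Of 18 matrix substrates, 13 passed the filter, with 4 higher and 6 lower (76.9% called, beside 62.4% of all genes tested). Of those lower, NCAN, with 0.902 and 0.475 CPM, reached the filter's level in 5 siCtrl and 2 siDDX41 libraries. The proteoglycan aggrecan (ACAN) fell from 35 to 14.9 CPM and tenascin C (TNC) from 445 to 258 CPM, and biglycan (BGN), which reached the filter's level in 5 siCtrl and 1 siDDX41 libraries, fell from 1.71 to 0.35 CPM. SPARC, a collagen-binding protein, rose from 2810 to 3180 CPM and thrombospondin 1 (THBS1) from 1070 to 1180 CPM. Of 20 proteins known to be shed, 16 passed the filter, with 6 higher and 9 lower (93.8% called, beside the same 62.4%). PTPRK and DLL1 were listed at 0 in all libraries, and whether the counting had left out their reads was not tested. The adhesion molecule L1CAM fell from 472 to 217 CPM and the chemokine CX3CL1 from 40 to 22.6 CPM, whereas IL6ST, the signalling receptor of the interleukin 6 family, rose from 248 to 447 CPM. The median log2 fold changes were -0.21 over the matrix substrates and -0.18 over the shed proteins, beside -0.001 over all genes tested.

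Markers were used to check the label of the cells. Among 10 mesenchymal and osteosarcoma markers, VIM was the most abundant with 2470 and 2320 CPM, and COL1A1, FN1, CDH2 and RUNX2 were also present. Of the osteoblast genes, ALPL had 5.01 and 3.08 CPM, whereas SP7 and BGLAP had 4 and 21 counts over all libraries. TWIST1 had 1 count, and COL1A2 was below 1 CPM. Of the 6 markers that passed the filter, VIM, CDH2, RUNX2 and ALPL were downregulated (66.7% called, beside 62.4% of all genes tested). The summed level of the 10 genes was 6250, 6250, 6440, 6110 and 6310 CPM in siCtrl and 5730, 5880, 5800, 5620 and 5820 CPM in siDDX41. Of the 6 leukocyte markers, PTPRC, with 0.333 and 0.539 CPM, and ITGAM, with 0.475 and 0.555 CPM, passed the filter and were not called. CD3E was at 0, and the sum of the 6 did not exceed 1.9 CPM in any library.

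Some epithelial and endothelial markers were also called lower. Of 6 epithelial markers, 5 passed the filter and 3 were downregulated, KRT14 from 17.2 to 1.78 CPM, KRT5, at the filter's level in 5 siCtrl and 3 siDDX41 libraries, from 5.24 to 0.488 CPM, and CLDN4, the most abundant, from 29.2 to 13.3 CPM. The share called was 60%, beside the same 62.4%. EPCAM, with 7.99 and 8.31 CPM, and CDH1 were not called, and KRT20 was at 0. Their sum was 57.5, 61.2, 58.7, 60.8 and 64.3 CPM in siCtrl and 23.8, 27.7, 24.5, 23.2 and 24.9 CPM in siDDX41. Of 5 endothelial markers, the 3 that passed the filter were downregulated, among them CDH5, which reached the filter's level in 5 siCtrl and 1 siDDX41 libraries. This is 100% called, where 62.4% of all genes tested were called and 32.1% were called lower. The sum, led by VWF, was 7.5, 7.51, 7.79, 7.66 and 7.59 CPM in siCtrl and 3.04, 4.38, 3.99, 3.5 and 3.49 CPM in siDDX41. Fewer cells of a type and less RNA per cell cannot be told apart in such bulk libraries, and the part of these genes in the results on proteases and inhibitors was not tested.

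The 23 members that did not pass the filter had few reads. ADAM2, ADAM30, ADAMTS13, MMP11, MMP26 and MMP27 were listed at 0 counts in all libraries, and whether the counting had left out reads of these genes was not tested. ADAM7, ADAM18, ADAM29, ADAM33, ADAMTS4, MMP21, MMP23B and MMP28 had between 1 and 6 counts over the 10 libraries. ADAM20 had 33, ADAM32 had 45, ADAMTS19 had 56 and ADAMTS18 had 62 counts over the 10 libraries.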

How the data were processed

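RNA-sequencing libraries of siCtrl and siDDX41 cells were analysed, with groups and replicate numbers taken from the sample labels. The authors made stranded polyadenylated RNA libraries, aligned single reads to hg38 with STAR and counted reads per gene with featureCounts, and the submitters' processing notes name STAR 2.7 and featureCounts 1.6. The deposited files list, for each library, integer read counts for every gene and no normalized value. Neither the strand option of the counting nor its treatment of multimapping reads is given in the sources used here.

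Symbols, positions and exon lengths came from GENCODE release 44 on GRCh38, the same build, joined by Ensembl identifier without its version, and 98.7% of the tested genes matched. The authors used an earlier GENCODE release, so levels per exon length rest on exons that may differ from those counted. The comparison was run with edgeR 4.0.16 in R 4.3.3, using filterByExpr by group, TMM factors, robust glmQLFit, glmQLFTest and Benjamini-Hochberg adjustment over all 16143 genes tested, with an adjusted p under 0.01 as threshold. The filter asks for 0.422 CPM in 5 libraries. Standard errors were derived from the F statistic. The common biological coefficient of variation was 3.65%. Alternatives used DESeq2 1.42.0 and its size factors, other filters, thresholds, a replicate block and fits without each library, and lengths of MANE Select transcripts for the sums. Tables were made in Python 3.11.15 with pandas 2.3.3 and scipy 1.17.1. The fit was also run on simulated counts in which few genes were changed. That setting is unlike these data, where 62.4% of all genes tested were called, so it does not check the scaling or the calls here. Promoter sequences came from RefSeq (GRCh38.p14). The depth, 21807041 to 24896398 counts per library, limits genes under about 1 CPM.

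Every TIMP and every member with a mean of at least 1 CPM was to be named, with the value of every library for the 14 with the smallest adjusted p, and up to 3 genes of each other list. Values of every library for MMP2, MMP3, MMP7, TIMP1 and TIMP2, members under 1 CPM outside the chromosome 11 cluster, and SH3PXD2B, FOSL2, RUNX2, SPARC and THBS1 in their lists were added after their values were seen. Members and lists were chosen with earlier results of these data known.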

Additional observations from a re-analysis of the deposited data

Results flagged for a closer look

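In 6 of 88 groups of 5 libraries, over DDX41, the members with at least 1 CPM and the log2 ratio of the sums in both groups, a single library stood apart from the other 4, its gap to the nearest of them being over 0.71 of the range. Chance alone gives about 1 in 20 such groups. In siCtrl, replicate 2 was the lowest for ADAM19 at 182 CPM, where the others lay between 189 and 190 CPM, and the lowest for TIMP2 at 521 CPM, where the others lay between 540 and 546 CPM. Replicate 3 of siCtrl was the lowest for ADAMTSL2 at 2.1 CPM, beside 2.65 to 2.78 CPM. In siDDX41, replicate 2 was the highest for ADAMTS10 at 14.5 CPM, beside 11.2 to 12 CPM, and for ADAMTS9 at 3.34 CPM, beside 3.04 to 3.11 CPM. Replicate 5 of siDDX41 was the lowest for MMP16 at 68.7 CPM, beside 73.9 to 74.4 CPM.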

How the results depend on the processing

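The 18 upregulated members numbered 16 to 18 and the 18 downregulated members 17 or 18 under the other scaling, filters and tests and the threshold of 0.05. With an absolute log2 fold change over 1 added to the threshold they numbered 4 and 6, since fewer members are that far from 0. When each of the 10 libraries was left out in turn, 15 upregulated and 18 downregulated members kept their call throughout. With the replicate number as a block, 17 members were upregulated and 18 downregulated, and DDX41 had a log2 fold change of -1.99. The deviations of libraries with the same number had correlations between -0.0524 and 0.0446, and 1 of 5 matched best with its own number, so that the numbers are not taken to pair the libraries. ADAM21 lost its call with the block (adjusted p 0.0107 by edgeR), beside 0.0137 to 0.0369 under the other settings that lost it outside the fits without 1 library.

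The difference in the log2 ratio of summed MMP to summed TIMP level, -0.07, became -0.26 without division by length, -0.20 without TIMP1 and 0.53 without MMP2. It was -0.14 with MANE Select lengths and -0.33 without the membrane-type MMPs, both chosen after seeing the data. Beyond the genes summed and the lengths used, the cause was not tested. Of the 49 tested members, 36 were tested under every setting and kept call and direction in all of them, the added fold change threshold aside. The filter of 1 CPM in 5 libraries took ADAM21, ADAM28 and ADAMTS14, which had been called, and ADAMTS5 and MMP25, which had not, out of the test. Members that were not called and changed sign without 1 library had log2 fold changes from -0.03 to 0.02 (ADAMTS15), -0.09 to 0.00 (ADAMTS2), -0.15 to 0.16 (ADAMTS5), -0.07 to 0.08 (ADAMTS9), -0.05 to 0.02 (ADAMTSL3), -0.06 to 0.03 (MMP24OS) and 0.00 to 0.03 (TIMP2), and the cause was not tested. Depth limits members under about 1 CPM. Overlapping genes on opposite strands may limit MMP19, MMP24, MMP25 and ADAM17, since the strand option of the counting is not given.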
